A study of Mus musculus with 24 samples.

Results

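The comparison set wild-type mouse CD4 T cells after 72 h of stimulation against wild-type cells after 24 h, the late step of activation in which naive cells turn into effector cells. It takes in 6 of the 24 arrays of the series, the 3 titled WT at 72 h and the 3 titled WT at 24 h, and all 22180 annotated genes. Naive CD4 T cells came from wild-type mice (WT), littermates of TRIM28KO mice (KO). TRIM28 is a protein that silences chromatin where KRAB zinc finger factors recruit it. Magnetic enrichment and a flow sort isolated the cells, which then met plate-fixed antibody to CD3 and dissolved antibody to CD28. By the labels both groups compared are WT, had the same stimulation and differ only in its length. Whether they were handled alike in other ways is not stated. The remaining arrays hold WT cells at 0 and 4 h and KO cells at 0, 4, 24 and 72 h, with 3 arrays in each group. The sort gate, age, any cytokine added and the way and the cells in which the KO was made are not stated in the labels. No label ties each array to its own animal, so p-values measure only how far these arrays spread. By sex-linked genes, each of the 2 groups compared held cells of at least 2 animals, and how much of the spread is technical cannot be told.

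A naive CD4 T cell that meets its antigen first switches on immediate-early transcription factors and the growth receptor for interleukin 2, then enlarges, copies its DNA and divides several times. During these divisions the daughter cells take on effector functions, such as the secretion of cytokines that instruct other leukocytes. Signals through CD3 stand for the antigen receptor and signals through CD28 for costimulation, and cytokines made in the culture act back on the same cells.

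Levels are log2 intensities made by the authors with RMA, a procedure that evens out the overall distributions of the arrays, so that a change shared by every gene would largely be lost. A change is the difference of mean log2 levels, 72 h minus 24 h, with the standard error (SE) of a limma model over all arrays, so that a change of 1 is a doubling. A gene was called higher or lower where its Benjamini-Hochberg adjusted p over all genes was below 0.05. Array medians lay between 3.59 and 3.76, and levels near the bottom of the scale compress fold changes. Of the genes given array by array, Cd80, Csf2, Cxcl10 and Slc7a3 at 24 h and Il1a and Npas4 at 72 h lay below the median gene, so their changes may be understated. Over genes, the WT arrays of 1 time correlated at 0.992 to 0.997, and WT arrays of different times at 0.973 to 0.977. In both WT groups compared, array 3 had the Y-linked and Xist levels of male cells and arrays 1 and 2 those of female cells, so both times hold the same mix. In such bulk samples, fewer cells of a type and less RNA per cell cannot be told apart.

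The cells carried the RNA of CD4 T cells at both times. The 8 T cell markers of the marker list with a matched probe set, of 11 listed, all lay above the median gene at both times. Cd4, the coreceptor that defines the lineage, stood at 10.86, 10.82 and 10.73 at 24 h and at 10.66, 10.68 and 10.75 at 72 h, a change of -0.11 (SE 0.07, adjusted p = 0.279), and the groups overlapped. Cd3e, a chain of the antigen receptor complex, stood at 11.56, 11.36 and 11.48 at 24 h and at 10.75, 10.78 and 10.64 at 72 h and fell by 0.75. Cd3g (-0.34) and the costimulatory receptor gene Cd28 (-0.42) also fell, and Cd2, an adhesion receptor, rose by 1.11. The CD8 gene Cd8a was at 3.39 ± 0.23 at 24 h and 3.23 ± 0.13 at 72 h (SD, n = 3), and both genes of the CD8 list were not called.

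Markers of myeloid cells were mostly low and flat, while the summed level of B cell markers was higher and fell. Of 18 myeloid markers 15 lay below the median gene at both times, among them Lyz2, Itgam, Csf1r and Adgre1, and 16 were not called. The summed myeloid level, the log2 of the added linear intensities, ranged from 7.74 to 7.81 at 24 h and from 8.34 to 8.40 at 72 h. The 2 myeloid markers that rose were Mpeg1 (4.12), which encodes a pore-forming protein, and the lysosomal gene Cd68 (0.34). The summed level of 13 B cell markers ranged from 10.5 to 10.6 at 24 h and from 9.74 to 9.91 at 72 h. Of these markers 6 lay below the median gene at both times, and 10 were not called. In that list the immunoglobulin heavy chain gene Ighm fell by 0.94 on the probe set used, while its probe sets ranged from -0.94 to 0.32 and their mean was not called (-0.38), and the class II genes H2-Ab1 and H2-Eb1 rose by 1.39 and 0.54. The H2-Ab1 call was lost without 24 h array 2, with a change of 1.18, and the H2-Eb1 call without any 1 of 5 of the 6 arrays, with changes of 0.45 to 0.59. Cd79a, Ms4a1 and Pax5 were not called. Of 8 natural killer and innate lymphoid markers 6 lay below the median gene at both times, and 1 was called, higher. Their summed level ranged from 6.25 to 6.31 at 24 h and from 6.10 to 6.23 at 72 h. Of 6 erythroid and platelet markers 4 lay below the median gene at both times, and all 6 were not called. The part of these cells in the results that follow was not tested.

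Between 24 and 72 h, 6086 genes (27.4%) were called, 2583 higher (11.6%) and 3503 lower (15.8%). The falls were many and small and the rises fewer and larger. At least 2-fold changes were found upward in 684 genes (3.08%) and downward in 196 (0.884%), and 5206 called genes changed by less than that. More than 4-fold, 202 genes rose and 11 fell. The median change of all genes was -0.06, with quartiles of -0.20 and 0.08. In 3321 genes every 72 h array lay above every 24 h array, and in 5450 every 72 h array lay below, called or not. Arrays that do not overlap are thus common among all 22180 genes, and with 3 arrays a time they are weak evidence alone. The counts, medians and statements of overlap that follow are to be read against these figures.

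**Figure D1:**
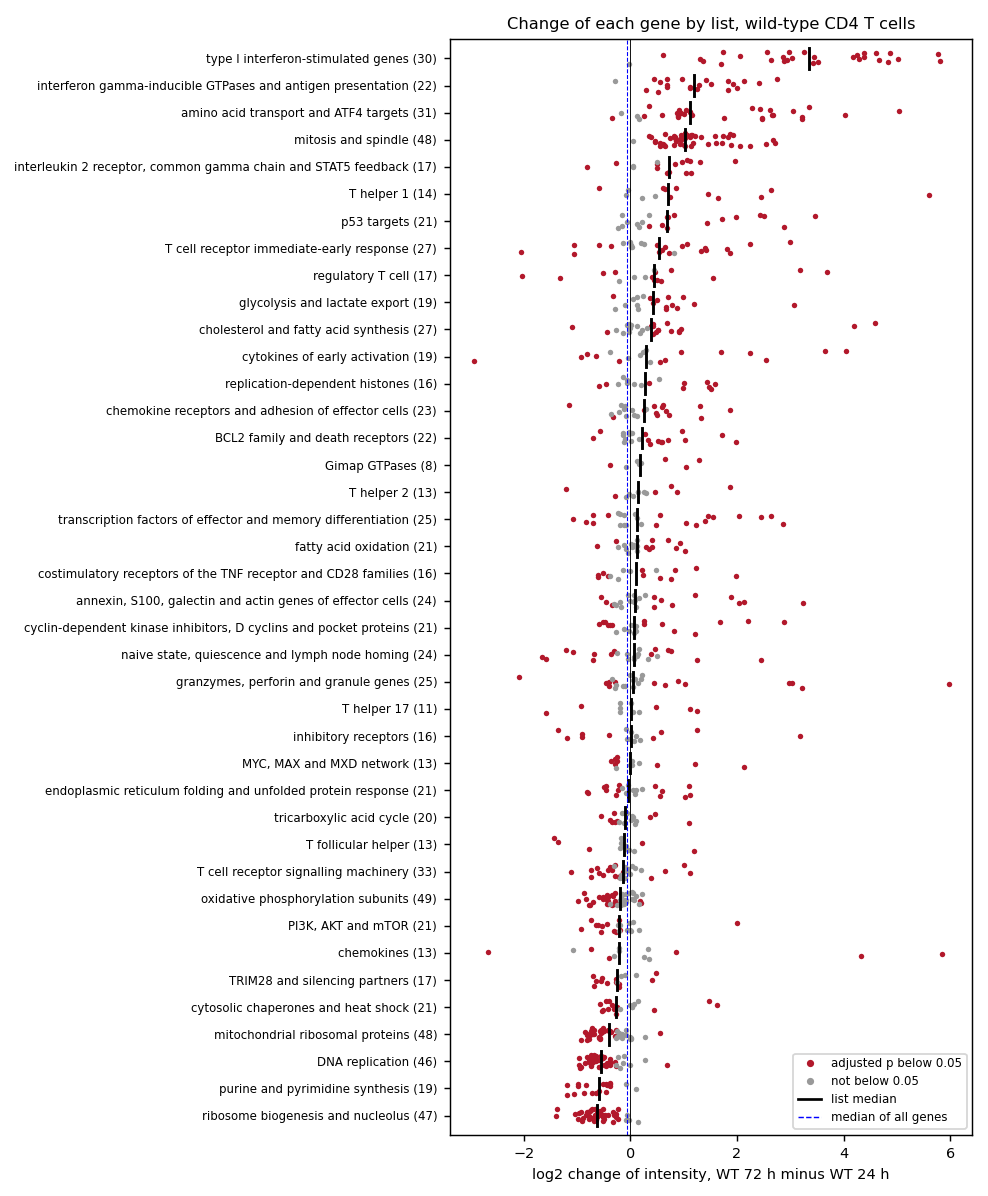
Each point is a gene of 1 of 40 lists, placed at its log2 change from WT 24 h to WT 72 h (x axis), red where the adjusted p is below 0.05 and grey where it is not; lists are ordered by their median (black bar), numbers in parentheses are genes measured, and the dashed line is the median of all genes. Interferon-stimulated genes sit highest, with a median of 3.34, and ribosome biogenesis genes lowest, with a median of -0.62.

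The 15 highest changes were taken from called genes whose 24 h and 72 h arrays did not overlap. Predicted, small RNA and receptor segment genes were left out, and Gzmb led. Gzmb, the granzyme that cytotoxic cells pass into their targets, stood at 4.42, 4.57 and 4.80 at 24 h and at 10.67, 10.48 and 10.53 at 72 h, which is 62.5-fold higher at 72 h, a change of 5.97 (SE 0.14, adjusted p = 2.26e-20). It had been at 2.45 ± 0.22 (SD, n = 3) at 0 h and at 2.57 ± 0.07 at 4 h. The chemokine gene Ccl5 stood at 4.39, 4.0 and 4.50 at 24 h and at 10.21, 9.90 and 10.30 at 72 h, a change of 5.84 (SE 0.20, adjusted p = 2.02e-17). Cd80, a ligand of CD28 and CTLA4 best known from antigen-presenting cells, stood at 3.68, 3.63 and 3.64 at 24 h and at 9.46, 9.54 and 9.48 at 72 h, a change of 5.84 (SE 0.16, adjusted p = 4.45e-19). For these 3 genes the gap between the times was many times the range within a time. Il12rb2, the inducible chain of the interleukin 12 receptor, rose by 5.61, Ccrl2, an atypical chemokine receptor, by 5.5, and Il23a, the p19 subunit of interleukin 23, by 5.17. Penk, the precursor of enkephalin peptides, rose by 4.95. The others of the 15 were Oasl2, Usp18, Oas3, Xaf1, Isg15, Mx1, Cth and Slc7a3, whose values follow.

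**Figure D2:**
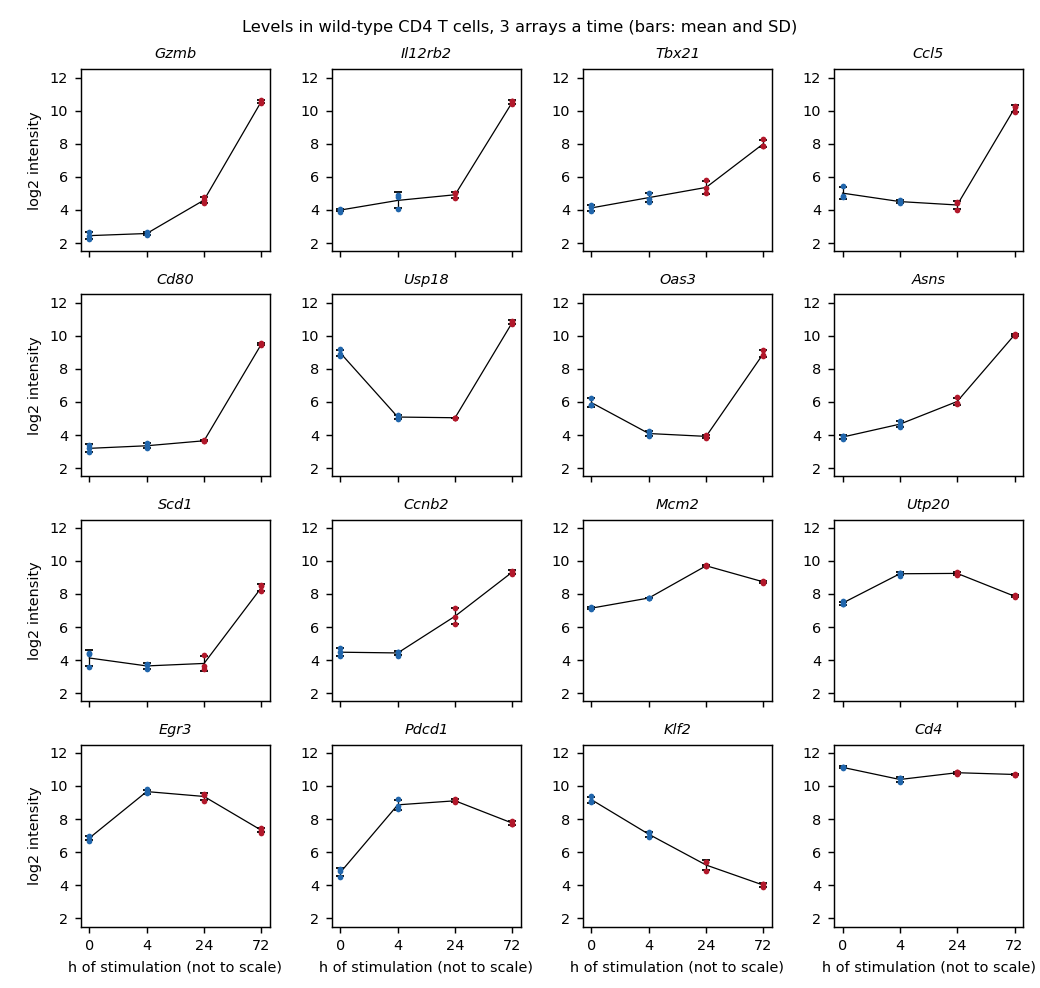
Log2 intensity (y axis) of 16 genes in wild-type cells at 0, 4, 24 and 72 h (x axis, not to scale), with 1 point per array, blue for 0 and 4 h and red for 24 and 72 h, and the mean and SD of 3 arrays as a line with bars. Gzmb, Il12rb2, Ccl5, Cd80 and Scd1 rose chiefly after 24 h. Usp18 and Oas3 were lower at 4 and 24 h than at 0 h and highest at 72 h. Mcm2 and Utp20 peaked by 24 h, and Cd4 was not called between 24 and 72 h.

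The 15 lowest changes, taken in the same way from called genes whose 24 h and 72 h arrays did not overlap, were smaller. Il1a, a proinflammatory cytokine, stood at 5.33, 5.64 and 5.53 at 24 h and at 2.5, 2.70 and 2.48 at 72 h, a change of -2.94 (SE 0.12, adjusted p = 3.03e-16), and had been at 2.13 ± 0.15 (SD, n = 3) at 4 h, so that of the 4 WT times it was high at 24 h alone. Xcl1, a chemokine for cross-presenting dendritic cells, stood at 6.92, 7.16 and 7.35 at 24 h and at 4.13, 4.61 and 4.67 at 72 h, a change of -2.67 (SE 0.23, adjusted p = 1.23e-09). Npas4, a transcription factor first known from active neurons, stood at 6.22, 6.39 and 6.0 at 24 h and at 3.55, 3.76 and 3.59 at 72 h, a change of -2.57 (SE 0.22, adjusted p = 1.09e-09). That every 72 h array of these 3 genes lay below every 24 h array follows from how they were chosen. Next came Akr1c18, a steroid dehydrogenase (-2.57), Rpp25, a subunit of ribonuclease P (-2.56), Utf1, a transcription factor of embryonic stem cells (-2.15), Ctsw, a protease of cytotoxic granules (-2.09), and Neto2, an auxiliary subunit of kainate receptors (-2.06). The rest of the 15 were the transcription factor gene Egr3 (-2.04), the receptor genes Gpr83 (-2.02) and Vipr1 (-2.01), Tram2 (-1.95), the sulfotransferase gene Chst2 (-1.90), Zfp992 (-1.84) and Ube2cbp (-1.74).

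Genes of the type I interferon response rose together and further than any other list. Interferons bind receptors on the cell surface, and transcription factors that they activate then bind an interferon-stimulated response element (ISRE) before the genes that they switch on. Promoters of RefSeq (GRCm38.p6) were searched in the 250 bases before each start for a pair of TTTC blocks with any 2 bases between them on either strand, a choice made with the results known, and every later motif was searched on both strands in the same way. A match was found in 8 of 25 promoters (32%) of the 20 list genes that could be matched, against 2.98% of 32851 promoters in all. The 4 matched genes with the largest rise are shown, with the match in capitals, to show the letters that these factors are known to read. The windows lie at chr5:120777705-120777754 (Oas3), chr4:156200855-156200904 (Isg15) and chr12:26456543-26456592 (Rsad2) on the minus strand and at chr19:34640784-34640833 (Ifit1) on the plus strand, each written in the direction of its gene.
Oas3: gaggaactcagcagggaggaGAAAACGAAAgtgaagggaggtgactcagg
Isg15: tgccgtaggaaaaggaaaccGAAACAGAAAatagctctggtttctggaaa
Ifit1: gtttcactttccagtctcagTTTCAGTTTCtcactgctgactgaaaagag
Rsad2: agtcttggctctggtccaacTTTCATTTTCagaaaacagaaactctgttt
The match ended 57 bases before the start in Isg15, 66 in Oas3, 76 in Ifit1 and 111 in Rsad2. A match is a description of the letters and no evidence of binding.

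Of 30 measured interferon-stimulated genes 29 rose and 0 fell, 28 of them at least 2-fold, with a median change of 3.34. Usp18, a protease that strips ISG15 from proteins and dampens the interferon receptor, stood at 5.04, 5.05 and 5.04 at 24 h and at 10.84, 10.70 and 10.91 at 72 h, a change of 5.77 (SE 0.15, adjusted p = 1.55e-19). Isg15, the ubiquitin-like modifier itself, stood at 5.40, 5.42 and 5.34 at 24 h and at 10.23, 10.26 and 10.17 at 72 h, a change of 4.84 (SE 0.18, adjusted p = 7.29e-17). Oas3, which makes the oligoadenylates that activate ribonuclease L, stood at 3.95, 3.98 and 3.83 at 24 h and at 8.86, 8.79 and 9.14 at 72 h, a change of 5.01 (SE 0.15, adjusted p = 9.09e-19). In each of these the arrays of the 2 times were far apart and those of 1 time close together. Oasl2, a related gene, rose by 5.80, the apoptosis gene Xaf1 by 4.87 and the antiviral GTPase gene Mx1 by 4.65. The transcription factor genes of the pathway rose too, Irf7 by 4.25, Stat2 by 3.51 and Irf9 by 1.70, as did the RNA sensor genes Ifih1 (3.04) and Ddx58 (2.94). Ifit3 was the member not called (-0.02), and Ifit2 rose by only 0.62 (these list members were named after their values were seen).

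The rise at 72 h ended a trough. The median level of the 30 genes was 7.46 at 0 h, 5.11 at 4 h, 5.03 at 24 h and 8.83 at 72 h. In 23 of the 30 the mean at 72 h was above that at 0 h. Usp18 had been at 8.95 ± 0.20 (SD, n = 3) at 0 h and at 5.09 ± 0.11 at 4 h, and Oas3 at 5.96 ± 0.25 and 4.09 ± 0.14. Gzmb and Cd80, by contrast, were near the bottom of their range at 0 h. The array medians of the list were 5.02 to 5.11 at 24 h and 8.78 to 8.90 at 72 h.

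**Figure D3:**
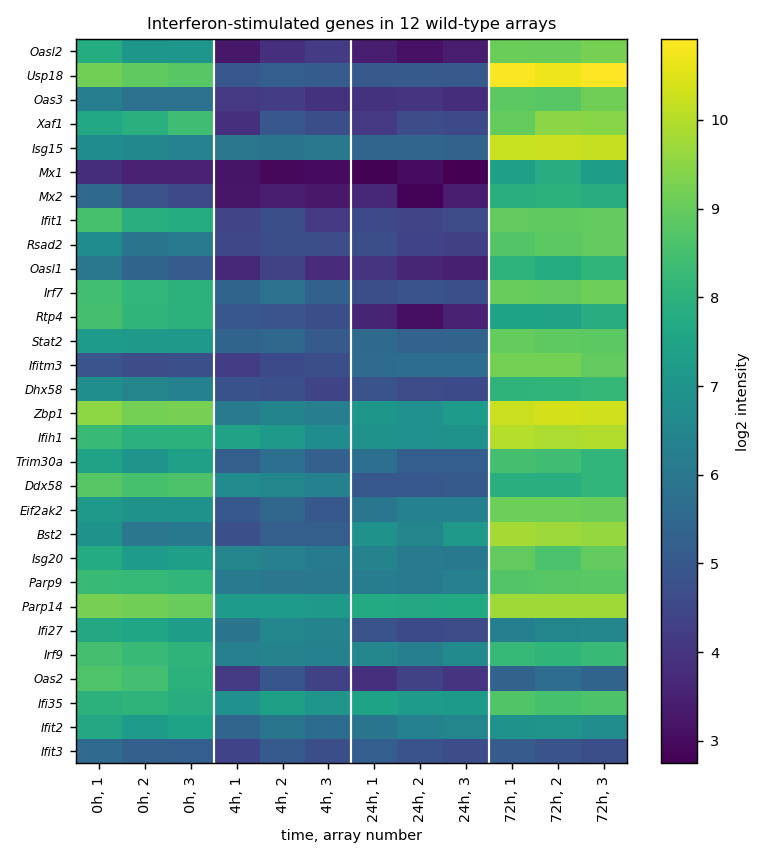
Log2 intensity (colour) of 30 interferon-stimulated genes (rows, ordered by their change from 24 to 72 h) in the 12 wild-type arrays (columns, by time and array number). Most genes are bright at 0 h, dark at 4 and 24 h and bright again at 72 h, and the 3 arrays of a time look alike.

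Genes that interferon gamma induces also rose, by less. Of 22 measured GTPases of cell-autonomous defence and antigen presentation genes 21 rose and 0 fell, with a median of 1.19, and the exception was Ciita (-0.29). Iigp1, an immunity-related GTPase, stood at 6.20, 5.43 and 6.79 at 24 h and at 8.85, 8.91 and 8.89 at 72 h, a change of 2.75 (SE 0.35, adjusted p = 5.57e-07). Its 24 h arrays differed among themselves by more than those of most genes, and all lay below the 72 h arrays. The guanylate-binding protein genes Gbp7 and Gbp9 rose by 2.41 and 2.0, and Irgm2 by 2.13. The peptide transporter gene Tap1 rose by 1.92, the immunoproteasome gene Psmb9 by 1.83 and the class I heavy chain gene H2-K1 by 1.12, while the transcription factor gene Irf1 rose by only 0.44. Of 18 promoters of this list 8 (44.4%) held the ISRE letters. Cxcl10, a chemokine that both kinds of interferon induce, stood at 3.16, 3.14 and 3.47 at 24 h and at 7.50, 7.52 and 7.73 at 72 h, a change of 4.33 (SE 0.15, adjusted p = 2.96e-17).

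The T helper 1 programme, by which CD4 T cells help to fight intracellular microbes, moved upward. Of 14 measured genes 9 rose and 1 fell, with a median of 0.70. Tbx21, the lineage transcription factor T-bet, stood at 5.30, 4.99 and 5.78 at 24 h and at 8.26, 7.87 and 7.88 at 72 h, a change of 2.64 (SE 0.17, adjusted p = 3.75e-12). Il12rb2 stood at 5.04, 4.70 and 5.01 at 24 h and at 10.60, 10.57 and 10.40 at 72 h, a change of 5.61 (SE 0.19, adjusted p = 1.99e-17), and Stat4, which carries the interleukin 12 signal, at 9.42, 9.15 and 9.25 at 24 h and at 10.95, 10.89 and 10.90 at 72 h, a change of 1.64 (SE 0.06, adjusted p = 3.15e-17). No 72 h array of these genes overlapped a 24 h array. The related factor genes Eomes and Runx3 rose by 2.46 and 1.46. Ifng, the cytokine of the programme, rose from 4.07, 4.06 and 4.37 to 5.19, 5.15 and 4.71, a change of 0.85 (SE 0.13, adjusted p = 1.35e-05), with no overlap of the times, and its levels stayed low on the array's scale. Il27ra, an interleukin 27 receptor chain, was the member that fell (-0.59).

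Cytotoxic granule genes did not move as a group. Of 25 measured 8 rose and 5 fell, with a median of 0.05. Beside Gzmb the risers were led by Nkg7, a granule membrane protein (3.22), and by Serpinb9 (2.98) and Serpinb6b (3.02), serpins that inhibit proteases of the granule. Perforin, Prf1, was at -0.34 with adjusted p = 0.297, and the granzyme genes Gzma (0.14) and Gzmk (0.05) were not called (chosen after their values were seen). Ctsw fell by 2.09, and Gzmm by 0.40, a call lost without any of 5 of the 6 arrays, with changes from -0.33 to -0.45. The Gzmm call was also lost with a replicate block (-0.40, adjusted p = 0.0521) and after a further quantile normalization (-0.36, adjusted p = 0.0681). The count of granule genes that fell was 3 after that normalization and 3 without arrays 3. Of the chemokine genes, 3 of 13 rose (Ccl5, Cxcl10 and Ccl4) and 3 fell (Xcl1, Ccl9 and Ccl1), and the fall of Ccl1, -0.40, was not called without 24 h array 1 or 2 or 72 h array 2, with changes of -0.35, -0.36 and -0.31.

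Cytokines of activation split. Csf2, which encodes GM-CSF, stood at 3.35, 3.18 and 2.86 at 24 h and at 7.20, 7.28 and 7.03 at 72 h, a change of 4.04 (SE 0.20, adjusted p = 2.43e-14), although a second probe set of the gene changed by only 0.24. Il6 rose by 3.64 and the related Lif, which stood at 5.45, 5.25 and 5.48 at 24 h and at 7.97, 7.96 and 7.88 at 72 h, by 2.55. Il3, a growth factor of myeloid cells and mast cells, rose by 2.24. The tumour necrosis factor gene Tnf, by contrast, stood at 10.53, 10.68 and 10.52 at 24 h and at 9.91, 9.88 and 10.04 at 72 h and fell by 0.64, Cd40lg, the ligand by which T cells help B cells, fell by 0.82, and Ltb, lymphotoxin beta, by 0.93. Il2, the growth factor of the cells, stood at 9.90, 9.94 and 9.88 at 24 h and at 10.48, 10.18 and 10.14 at 72 h, a change of 0.36 (SE 0.18, adjusted p = 0.149), with the 72 h arrays above the 24 h arrays but short of the threshold. In a fit of the 6 arrays alone it passed, with adjusted p = 0.00357, and over the other alternatives adjusted p lay between 0.0999 and 0.43. In all, 8 of 19 genes rose and 5 fell.

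Targets of the antigen receptor showed the same mixture. Of 27 immediate-early genes 14 rose and 5 fell, with a median of 0.54. The early growth response factors fell, Egr3 from 9.54, 9.45 and 9.10 to 7.43, 7.36 and 7.17, Egr2 by 1.06 and Egr1 by 0.58, and so did Nfkbid, a nuclear IkB protein, by 1.06. The AP-1 gene Jun stood at 7.09, 6.78 and 6.61 at 24 h and at 8.88, 8.55 and 8.67 at 72 h, a change of 1.87 (SE 0.16, adjusted p = 1.11e-09), and Fosl2 at 6.90, 6.96 and 6.95 at 24 h and at 8.74, 8.57 and 8.95 at 72 h, a change of 1.82 (SE 0.09, adjusted p = 2.11e-14). Ier3 (2.98) and the phosphatase gene Dusp4 (2.23) rose further. Cd69, an early surface marker of activation, was 0.03 (SE 0.06, adjusted p = 0.765), and Il2ra, the alpha chain of the interleukin 2 receptor, rose by 0.50.

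Signalling molecules near the receptor leaned downward, with 4 of 33 higher, 14 lower and a median of -0.14. Zap70, the kinase that docks on the CD3 chains, stood at 9.71, 9.85 and 9.90 at 24 h and at 9.23, 9.14 and 9.22 at 72 h, a change of -0.62 (SE 0.06, adjusted p = 1.52e-08). The transcription factor gene Nfatc1 fell by 0.74 and Ubash3a, which restrains receptor signalling, by 1.11. The ubiquitin ligase gene Cblb, a brake on activation, rose by 1.0, the phosphatase gene Ptpn22 by 0.65 and Themis by 0.38, although the Themis call was lost without 24 h array 1 (0.32) or 72 h array 1 (0.31). In the PI3K, AKT and mTOR list 11 of 21 genes fell and 1 rose, or 2 after the further quantile normalization. The gene that rose was Eif4ebp1, a repressor of cap-dependent translation, at 7.50, 7.52 and 7.45 at 24 h and at 9.58, 9.31 and 9.60 at 72 h, a change of 2.01 (SE 0.13, adjusted p = 2.59e-12), while its relative Eif4ebp2 fell by 0.93.

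Receptors and feedback genes of the common gamma chain cytokines rose, 12 of 17, with 2 lower and a median of 0.72. Il15ra, which presents interleukin 15, stood at 5.82, 5.79 and 5.83 at 24 h and at 7.63, 7.68 and 8.01 at 72 h, a change of 1.96 (SE 0.12, adjusted p = 5.95e-13). The feedback inhibitor gene Socs2 rose by 1.30, Stat5b by 1.12 and the kinase gene Pim1 by 1.14, with other probe sets of Socs2 and Pim1 as low as 0.73 and 0.16. The letters TTCNNNGAA, which STAT proteins read, were in 2 of 19 promoters (10.5%) of the list and in 7.02% of all. The related kinase gene Pim2 stood at 9.82, 9.85 and 9.87 at 24 h and at 9.04, 8.94 and 9.11 at 72 h and fell by 0.82. Costimulatory receptors split, with 7 of 16 higher and 4 lower. Fas, a death receptor, rose from 7.40, 7.30 and 7.16 to 9.33, 9.31 and 9.15, a change of 1.98, and Tnfrsf9, also called 4-1BB, by 0.84, while Cd27 and Tnfrsf1b fell by 0.61 each.

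Inhibitory receptors went both ways, with 4 of 16 higher, 5 lower and a median of 0.01. Pdcd1, which encodes PD-1, stood at 9.19, 9.06 and 9.05 at 24 h and at 7.67, 7.68 and 7.90 at 72 h, a change of -1.35 (SE 0.14, adjusted p = 1.27e-08). Tigit stood at 4.97, 4.20 and 4.16 at 24 h and at 7.76, 7.46 and 7.65 at 72 h, a change of 3.18 (SE 0.18, adjusted p = 1.66e-13), and Lag3 at 7.80, 7.87 and 7.41 at 24 h and at 8.93, 8.86 and 9.05 at 72 h, a change of 1.25 (SE 0.15, adjusted p = 1.6e-07). Ctla4 rose by 0.57, and Cd160, Lair1 and Vsir fell by 1.19, 0.91 and 0.90. Btla, named after its value was seen, fell by 0.40, and Havcr2, likewise, was 0.18 and not called. Pdcd1 thus fell in this step while Tigit, Lag3 and Ctla4 rose.

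Genes of the naive state had no common direction in this step. Of 24 measured 8 fell and 6 rose, with a median of 0.07, after a median change of -1.88 from 0 to 24 h. Klf2, which keeps naive cells quiescent and recirculating, stood at 5.38, 4.88 and 5.40 at 24 h and at 4.09, 4.04 and 3.87 at 72 h, a change of -1.22 (SE 0.18, adjusted p = 8.34e-06), after 9.17 ± 0.19 (SD, n = 3) at 0 h. The interleukin 6 receptor gene Il6ra fell by 1.58, Igfbp4 by 1.65, Bach2, which represses effector genes, by 1.08, and Lef1, a factor of the Wnt pathway, by 0.69. Other members rose. Ccr7, the receptor for lymph node homing, stood at 10.42, 10.51 and 10.48 at 24 h and at 11.28, 11.22 and 11.19 at 72 h, a change of 0.76 (SE 0.07, adjusted p = 5.75e-09), Satb1, a chromatin organiser, at 8.69, 8.72 and 8.61 at 24 h and at 9.91, 9.83 and 10.01 at 72 h, a change of 1.25 (SE 0.06, adjusted p = 3.59e-14), and Klf6 rose by 2.45. The arrays of the 2 times did not overlap in any of these genes.

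Adhesion, migration and cytoskeletal genes of effector cells leaned upward. Of 23 migration genes 11 rose and 2 fell, among them Ccr8 (1.87) and Cxcr4 (1.30), chemokine receptors, and Itgav (1.32), an integrin chain whose probe sets ranged from 0.26 to 1.32. Cxcr6 fell by 1.15. Of 24 annexin, S100, galectin and actin genes 9 rose and 3 fell. Anxa2, a calcium-dependent membrane binder, stood at 5.63, 5.6 and 5.51 at 24 h and at 8.79, 8.81 and 8.85 at 72 h, a change of 3.24 (SE 0.14, adjusted p = 1.27e-15). Vim, vimentin, rose by 2.12 and the galectin gene Lgals1 by 2.04, while Flna, the actin crosslinker filamin A, fell by 0.55.

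Transcription factors of effector and memory differentiation included 11 of 25 higher and 5 lower. Beside Tbx21 and Eomes, Nfil3, which rose from 3.60, 4.10 and 4.23 to 6.69, 6.76 and 7.03 (2.85), and Bhlhe40, from 9.05, 8.82 and 8.86 to 11.01, 10.89 and 10.95 (2.04), were highest. Ikzf3 and Bach1 fell by 0.83 and 0.70. Prdm1, Bcl6, Tox and Id2, named after their values were seen, were not called, with changes of -0.13, -0.12, -0.19 and -0.23.

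Markers of other helper lineages gave no common direction. Foxp3, the factor of regulatory T cells, stood at 6.68, 6.90 and 6.69 at 24 h and at 5.31, 5.06 and 5.95 at 72 h, a change of -1.31 (SE 0.24, adjusted p = 0.000112), while other genes of that list rose, Ebi3, a cytokine subunit, by 3.68 (a second probe set by 0.11) and the semaphorin receptor gene Nrp1 by 1.55, for a total of 9 of 17 higher and 4 lower. In the T helper 2 list 4 of 13 rose and 2 fell. Gata3, its factor, rose by 0.87 on the probe set used and by 0.07 on another, and Ecm1 fell by 1.2. In the T helper 17 list 3 of 11 rose, with Stat3 at 1.24 and Rora at 1.12, and 2 fell, Il6ra and the aryl hydrocarbon receptor gene Ahr (-0.94). Follicular helper genes gave 2 higher and 3 lower of 13, with Slamf6 at -1.44 and Sh2d1a, the adaptor SAP, at 1.2.

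RNA of genes for amino acid transport and synthesis rose strongly, while amino acids themselves were not measured. ATF4 is a transcription factor whose translation increases when amino acids run short or the endoplasmic reticulum is stressed, and it drives genes for the import and synthesis of amino acids. The letters TGATGNAA, the core that ATF4 binds with a C/EBP partner, were found in 6 of 31 promoters (19.4%) of the list's 26 matched genes and in 3.45% of all promoters, again a choice made with results known. The 4 matched genes that rose most are shown with the match in capitals, at chr6:7693210-7693252 (Asns, minus strand), chr2:119351029-119351076 (Chac1), chr14:55540143-55540190 (Pck2) and chr19:27216800-27216847 (Vldlr), the last 3 on the plus strand.
Asns: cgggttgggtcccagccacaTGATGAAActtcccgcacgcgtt
Chac1: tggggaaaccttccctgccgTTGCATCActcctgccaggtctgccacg
Pck2: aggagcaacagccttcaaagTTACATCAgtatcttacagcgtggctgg
Vldlr: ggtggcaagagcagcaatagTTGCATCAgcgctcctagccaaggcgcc
The match in Asns ended 16 bases before the start, that in Pck2 96, that in Chac1 186 and that in Vldlr 193.

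Of 31 measured genes of amino acid transport and ATF4 targets 27 rose and 1 fell, 18 of the risers at least 2-fold, with a median of 1.12. Cth, which makes cysteine from cystathionine, stood at 4.22, 3.65 and 4.25 at 24 h and at 9.08, 9.16 and 9.02 at 72 h, a change of 5.04 (SE 0.16, adjusted p = 2.63e-18). Asns, asparagine synthetase, stood at 5.88, 6.28 and 5.92 at 24 h and at 10.09, 10.01 and 10.06 at 72 h, a change of 4.03 (SE 0.15, adjusted p = 6.02e-17). Slc7a3, a carrier of arginine and lysine outside the list, stood at 3.06, 3.09 and 2.95 at 24 h and at 7.75, 7.65 and 7.95 at 72 h, a change of 4.75 (SE 0.11, adjusted p = 1.06e-20). The 24 h arrays of these genes were all lower than the 72 h arrays by several log2 units. Chac1, which degrades glutathione, rose by 3.35, Pck2, the mitochondrial phosphoenolpyruvate carboxykinase, by 3.22, the cystine carrier gene Slc7a11 by 2.46, and Atf4 itself by 0.94. The leucine carrier chains Slc7a5 and Slc3a2 rose by 0.90 and 1.0. Slc7a6 was the member that fell (-0.34). The unfolded protein response as a whole did not follow, with 6 of 21 genes higher and 8 lower: Ero1a (1.12) and Herpud1 (1.02) rose, and Sdf2l1 (-0.82) and Dnajb9 (-0.79), also genes of protein folding, fell.

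Lipid genes rose in 2 steps of fatty acid desaturation and modestly in cholesterol synthesis. Scd1, which makes monounsaturated fatty acids, stood at 4.29, 3.45 and 3.66 at 24 h and at 8.47, 8.52 and 8.17 at 72 h, a change of 4.58 (SE 0.31, adjusted p = 9.62e-12). Fads2, the delta-6 desaturase, stood at 4.73, 4.47 and 5.08 at 24 h and at 8.93, 8.95 and 9.0 at 72 h, a change of 4.20 (SE 0.13, adjusted p = 4.53e-18). The enzymes that make saturated chains went the other way, Fasn, fatty acid synthase, from 9.46, 9.46 and 9.38 to 8.41, 8.43 and 8.18, a change of -1.09 (SE 0.08, adjusted p = 1.33e-10), and Acaca, acetyl-CoA carboxylase, by -0.43. Across the list 14 of 27 rose and 2 fell, with a median of 0.39, and the cholesterol genes Msmo1 and Tm7sf2 rose by 0.94 and 0.91. The sterol regulatory element, searched in its classical form alone, was in 0 of 26 promoters of the list and in 0.0731% of all.

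Of 19 glycolysis genes 11 rose and 1 fell, with a median of 0.42. Slc16a3, which exports lactate, stood at 4.17, 4.62 and 4.41 at 24 h and at 7.44, 7.75 and 7.21 at 72 h, a change of 3.07 (SE 0.15, adjusted p = 1.41e-14), Pfkp, a phosphofructokinase, rose by 1.2, and the glucose carrier gene Slc2a3 by 0.99. Ldha and Gapdh, named after their values were seen, were 0.13 and 0.05 and not called. Pfkfb3, which makes an activator of phosphofructokinase, fell by 0.33, a call lost without 24 h array 2 (-0.23) or 72 h array 1 (-0.30) or 2 (-0.31). In fatty acid oxidation 8 of 21 rose and 2 fell, with Acadl at 1.03 and Cpt1a, which admits fatty acids to the mitochondrion, at 0.86.

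Mitosis genes and DNA replication genes moved in opposite directions. Of 48 measured genes of mitosis and the spindle 47 rose and 0 fell, 26 at least 2-fold, with a median of 1.02, and Bub3 was not called (0.05). Of 46 replication genes 1 rose and 38 fell, with a median of -0.55 and a lowest change of -0.97. Median levels of the mitosis list were 6.96 to 7.34 in the 24 h arrays and 8.05 to 8.21 in the 72 h arrays, and those of the replication list 8.59 to 8.65 and 8.10 to 8.20. Both lists were lower at 0 h than at 24 or 72 h, with medians of 4.17 and 6.25, and the replication list stayed far above that at 72 h, at a median of 8.16.

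Ube2c, which passes ubiquitin to targets of the anaphase-promoting complex, stood at 6.42, 5.98 and 6.61 at 24 h and at 9.0, 9.17 and 8.99 at 72 h, a change of 2.72 (SE 0.12, adjusted p = 4.01e-15). Ccnb2, a B-type cyclin, stood at 6.59, 6.20 and 7.17 at 24 h and at 9.41, 9.35 and 9.23 at 72 h, a change of 2.67 (SE 0.16, adjusted p = 5.78e-13), with a wider spread at 24 h than at 72 h. Hmmr, a spindle protein, rose by 2.54, Cenpa, the histone of the centromere, by 2.25, and Mki67, the Ki-67 protein, by 1.14. The cell cycle homology region (CHR), at which the DREAM and MuvB complexes act, has the core TTTGAA. These letters were in 19 of 44 promoters (43.2%) of the mitosis list and in 16% of all. The 3 matched genes that rose most are shown with the core in capitals, at chr2:164769880-164769925 (Ube2c, plus strand), chr9:70421696-70421741 (Ccnb2) and chr4:118437344-118437381 (Cdc20), both on the minus strand.
Ube2c: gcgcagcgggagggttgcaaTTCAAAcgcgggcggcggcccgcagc
Ccnb2: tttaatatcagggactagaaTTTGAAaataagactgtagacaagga
Cdc20: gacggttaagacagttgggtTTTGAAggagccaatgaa
The core ended 24 bases before the start in Ube2c, 162 in Ccnb2 and 13 in Cdc20, whose change was 1.93.

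In the replication list Mcm2, a subunit of the helicase, stood at 9.70, 9.73 and 9.68 at 24 h and at 8.80, 8.64 and 8.75 at 72 h, a change of -0.97 (SE 0.07, adjusted p = 7.45e-11). Orc1, of the origin recognition complex, stood at 7.04, 6.90 and 7.18 at 24 h and at 6.05, 6.17 and 6.03 at 72 h, a change of -0.96 (SE 0.13, adjusted p = 1.82e-06). Pole2, a subunit of DNA polymerase epsilon, fell by 0.95 and Chaf1b, a chaperone that lays histones on new DNA, by 0.93. The transcription factor gene E2f2 was the member that rose (0.68). The E2F letters TTTGGCGC or TTTCCCGC were in 6 of 46 promoters (13%) of the list and in 1.3% of all. Of 16 replication-dependent histone genes measured, 7 rose, H1f5 by 1.43 and H1f1 by 1.48, and 2 fell, H4c9 by 0.59 (-0.42 and not called without arrays 3) and H2bc14 by 0.45. Histone genes are near-identical and their probe sets may share signal. Without arrays 3 neither fall was called. The H2bc14 call was also lost without 24 h array 3 (-0.29), 72 h array 1 (-0.38) or 72 h array 3 (-0.47).

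**Figure D4:**
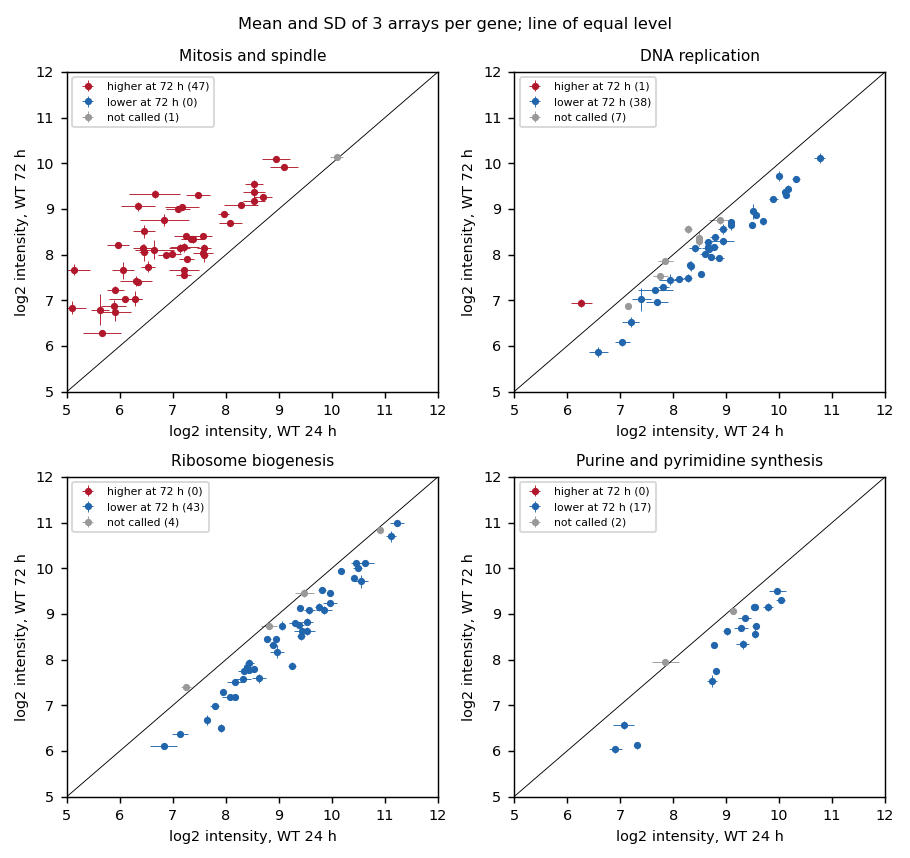
Each point is a gene at its mean log2 intensity in WT at 24 h (x axis) and 72 h (y axis), with the SD of 3 arrays as bars, red where called higher, blue where called lower and grey where not called, in 4 lists. All called mitosis genes lie above the line of equal level, and the called genes of ribosome biogenesis and of purine and pyrimidine synthesis lie below it, as do 38 of 39 called replication genes.

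Of 10 measured Cdkn genes, most of which encode inhibitors of cyclin-dependent kinases, 5 rose and 0 fell. Cdkn1a, which encodes p21, stood at 6.57, 6.68 and 7.15 at 24 h and at 9.76, 9.69 and 9.56 at 72 h, a change of 2.87 (SE 0.15, adjusted p = 2.89e-14). Cdkn2d, which encodes p19INK4d, stood at 5.75, 5.30 and 5.33 at 24 h and at 7.62, 7.72 and 7.64 at 72 h, a change of 2.20 (SE 0.11, adjusted p = 4.29e-14), and Cdkn1b, p27, at 5.85, 5.93 and 6.03 at 24 h and at 7.19, 7.05 and 7.20 at 72 h, a change of 1.21 (SE 0.13, adjusted p = 2.48e-08). The kinase gene Cdk4 fell by 0.58 and the D-type cyclin gene Ccnd2 by 0.43. In the list of these inhibitors with D cyclins and pocket proteins 8 of 21 rose and 6 fell. The fall of E2f7, by 0.47, was between overlapping groups and was not called without 24 h array 1 or 3 or 72 h array 1 or 3, with changes of -0.44, -0.31, -0.38 and -0.47.

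Targets of p53, the transcription factor of DNA damage and other stress, were higher in 13 of 21 and lower in 0, with a median of 0.68. Perp, a membrane protein of p53-linked death, stood at 4.39, 4.43 and 4.05 at 24 h and at 7.64, 7.99 and 7.63 at 72 h, a change of 3.47 (SE 0.16, adjusted p = 4.76e-15). The kinase gene Plk2 rose by 2.51 and Sesn2, which ATF4 also drives and which both lists hold, by 2.43. In the list of the BCL2 family and death receptors 11 of 22 rose and 2 fell. Bcl2, which blocks mitochondrial death, rose by 0.96 on the probe set used and by 0.05 on another, Pmaip1, which encodes the killer protein NOXA, by 1.72 and Fasl, the ligand of Fas, by 1.02, while the BH3-only genes Bid and Bcl2l11 fell by 0.70 and 0.57.

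Genes of ribosome biogenesis fell almost throughout. Of 47 measured 43 fell and 0 rose, with a median of -0.62, and 3 fell at least 2-fold. Grwd1, a chaperone of ribosomal protein L3, stood at 7.86, 7.94 and 7.90 at 24 h and at 6.49, 6.41 and 6.6 at 72 h, a change of -1.40 (SE 0.09, adjusted p = 6.94e-12). Utp20, of the small subunit processome, stood at 9.32, 9.24 and 9.17 at 24 h and at 7.87, 7.93 and 7.79 at 72 h, a change of -1.38 (SE 0.09, adjusted p = 2.79e-12). Ppan and Polr1b, the latter a subunit of RNA polymerase I, fell by 1.04 and 0.99. The 4 not called were Gar1, Polr1c, Polr1a and Nop56 (named after their values were seen). The list's median level was 7.61 at 0 h, 9.06 at 4 h, 9.24 at 24 h and 8.62 at 72 h, so that the fall left it above the level of unstimulated cells.

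Genes of purine and pyrimidine synthesis fell likewise, 17 of 19, with 0 higher and a median of -0.58. Nme1, a nucleoside diphosphate kinase, stood at 7.34, 7.28 and 7.34 at 24 h and at 6.21, 6.10 and 6.07 at 72 h, a change of -1.2 (SE 0.08, adjusted p = 2.34e-11). Cad, which carries the first steps of pyrimidine synthesis, stood at 8.86, 8.74 and 8.82 at 24 h and at 7.80, 7.77 and 7.68 at 72 h, a change of -1.06 (SE 0.09, adjusted p = 6.97e-10). The folate enzyme genes Shmt1 and Mthfd1 fell by 1.19 and 0.98. Their mitochondrial counterparts, which stand in the amino acid list, did not: Shmt2 rose by 0.35 and Mthfd2 by 1.16, as named after their values were seen. The E-box CACGTG, which MYC and its partner MAX bind, was in 2 of 48 promoters (4.17%) of the ribosome biogenesis list, in 4 of 21 (19%) of the nucleotide list and in 6.02% of all.

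Myc, which drives these growth genes in activated lymphocytes, stood at 10.76, 10.72 and 10.67 at 24 h and at 10.42, 10.45 and 10.43 at 72 h, a change of -0.28 (SE 0.09, adjusted p = 0.0168). The arrays did not overlap, but the call was lost without 24 h array 1 (-0.26). Mxd1, which competes with MYC for MAX and represses, stood at 7.52, 7.21 and 7.38 at 24 h and at 9.41, 9.46 and 9.62 at 72 h, a change of 2.12 (SE 0.08, adjusted p = 2.71e-16), and Mxi1, of the same kind, rose by 1.22 (0.36 on another probe set). Max fell by 0.37. The MYC, MAX and MXD list gave 3 higher and 5 lower of 13, and the lower count was 2 without 24 h array 1, 3 without 72 h array 1 and 2 without 72 h array 3.

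Mitochondrial genes fell by smaller amounts. Of 48 mitochondrial ribosomal protein genes 30 fell and 1 rose, with a median of -0.41. Mrpl50 stood at 8.61, 8.44 and 8.48 at 24 h and at 7.59, 7.58 and 7.59 at 72 h, a change of -0.92 (SE 0.09, adjusted p = 6.2e-09). The riser, Mrpl32, was at 0.56 with adjusted p = 0.0496 and lost its call without any of 5 of the 6 arrays, with changes of 0.45 to 0.61. Of 49 subunits of oxidative phosphorylation 22 fell and 2 rose (5 after the further quantile normalization), with a median of -0.20. Among those that fell were Cox7b, of cytochrome oxidase (-0.97), and Ndufa4 (-0.88). In the tricarboxylic acid cycle 6 of 20 fell, with Idh3a at -0.56, and 3 rose, with the cytosolic enzyme gene Idh1 at 1.09. Chaperones fell in 12 of 21 and rose in 3: the cochaperone gene Ahsa1 fell by 0.57, and Hspa9, of the mitochondrion, rose by 0.44. The stress-inducible pair Hspa1a (1.48) and Hspa1b (1.62), also higher, are near-identical and may share probe signal.

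Trim28, the gene deleted in the other genotype, stood in these WT cells at 9.09, 9.21 and 9.26 at 24 h and at 8.78, 8.57 and 8.55 at 72 h, a change of -0.55 (SE 0.13, adjusted p = 0.00136). Of 17 genes of TRIM28 and its silencing partners 11 fell and 2 rose, with a median of -0.26. The DNA methyltransferase genes Dnmt3a and Dnmt3b fell by 0.70 and 0.69, and Uhrf1, which brings DNMT1 to newly copied DNA, by 0.65. Trim24, a relative of Trim28, rose by 0.49 and the histone methyltransferase gene Ehmt2 by 0.41.

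KO cells taken at the same times share no array with this comparison, and the difference of the 2 steps, KO minus WT, was tested in the same model. In KO 3920 genes (17.7%) were called between 24 and 72 h. The step differed for 1876 genes (8.46%), and for 942 without arrays 3. It was lower in KO for 790 (3.56%) and higher for 1086 (4.9%), so that 57.9% of the differing genes were higher, against 47.7% after a further quantile normalization of the gene table. Trim28 stood in KO at 5.61 ± 0.07 (SD, n = 3) at 24 h and 5.55 ± 0.32 at 72 h, against 9.19 ± 0.09 and 8.64 ± 0.13 in WT. For the other genes and lists only the KO step is given, without KO levels. A lower KO step can go with a higher KO level at 24 h, a lower one at 72 h or both. These were not told apart.

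Of the 40 lists, the interferon-stimulated genes had the largest median difference between the steps, -1.62. The median change of the 30 interferon-stimulated genes was 3.34 in WT and 1.73 in KO, with a lower KO step called in 26 of 30. Usp18 rose by 5.77 in WT and by 1.67 in KO, a difference of -4.11 (SE 0.22, adjusted p = 2.17e-12). Among the interferon gamma-inducible genes the median was 1.19 in WT and 0.19 in KO, with 17 of 22 called lower. Gzmb rose by 5.97 in WT and 3.07 in KO, a difference of -2.89 (SE 0.20, adjusted p = 3.77e-10), and Il12rb2 by 5.61 and 2.56, a difference of -3.04 (SE 0.27, adjusted p = 3.07e-08). Eomes rose by 2.46 in WT and was at 0.22 in KO, a difference of -2.23 (SE 0.25, adjusted p = 9.5e-07).

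In growth genes the WT fall was the larger. Ribosome biogenesis genes changed by a median of -0.62 in WT and -0.14 in KO, with a higher KO step called in 33 of 47, in 28 after the further quantile normalization and in 21 without arrays 3. Pdcd1 fell by 1.35 in WT and was -0.05 in KO, a difference of 1.30 (SE 0.19, adjusted p = 5.78e-05). In mitosis genes the medians were 1.02 and 1.54, with 11 of 48 called higher in KO but 7 after that normalization and 1 without arrays 3. In the amino acid and ATF4 list, by contrast, the medians were 1.12 in WT and 1.16 in KO, with 6 of 31 called lower in KO (3 without arrays 3) and 0 higher. Cth rose by 5.04 in WT and 5.09 in KO, and Asns by 4.03 and 4.12. The differences of those 2 genes were 0.04 (SE 0.22, adjusted p = 0.959) and 0.09 (SE 0.21, adjusted p = 0.892).

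**Figure D5:**
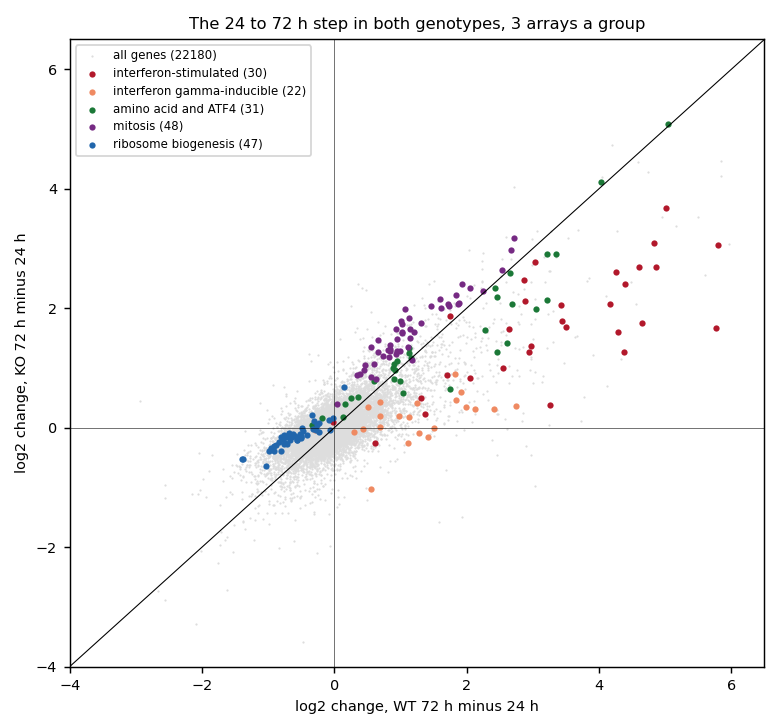
Each point is a gene at its log2 change from 24 to 72 h in WT (x axis) and in KO (y axis), 3 arrays a group, with all 22180 genes in grey, 5 lists in colour and the line of equal change. Most interferon genes lie below the line, ribosome biogenesis and mitosis genes mostly above it, and Cth and Asns on it.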

How the data were processed

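RNA of 24 samples of CD4 T cells, 3 in each of 8 groups, was hybridised to Affymetrix arrays, 1 sample an array. The deposited table holds log2 intensities, which the authors made with RMA (oligo, R 3.1.0), as the deposited record's processing notes from the submitters state. It gives no detection calls, and precision is limited by how many arrays there are. Of 41345 probe sets, 23521 carried 1 gene symbol, 1814 several and 16010 were not listed in the annotation used here. Symbols were matched to RefSeq for 23328, and the probe set with the highest mean stood for each of 22180 genes. Group means of all 24 arrays were fitted with limma 3.58.1 in R 4.3.3 (eBayes with trend, 16 residual and 8.81 prior degrees of freedom), and p-values were adjusted over all genes by Benjamini-Hochberg, with a threshold of 0.05. The difference of the KO and WT steps was a contrast of the same model. The code was tested on simulated data with independent normal noise, which hold no structure shared between arrays and so do not test this design.

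The members and the gene lists were chosen with earlier results of these data known. Named genes are the 15 highest and 15 lowest changes with arrays that do not overlap, up to 4 of each list and direction, a set of reference genes, and the 6 highest and 6 lowest step differences. Other genes were named after their values were seen. The rule also asked for the genes most like the top ones over the 4 WT times, which are not reported because they rest on 4 points. Deviations of same-numbered arrays from their group means correlated at -0.004, 0.02 and 0.14 in WT and at 0.16, 0.19 and 0.18 in KO, where other-numbered arrays correlated below 0. Deviations within a group sum to 0, so positive values for same numbers push the others below 0, which adds no evidence. The limit of 0.1 was set for every pair. In WT the arrays numbered 3 passed it (0.14) and those numbered 1 and 2 did not, so the numbers were not taken as pairs. The fit with a replicate block is an alternative for WT, KO and their difference. The alternatives were the mean of probe sets, a filter at the 40th percentile of level, a further quantile normalization, the compared groups alone, a replicate block, 2 other eBayes settings and arrays left out.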

Additional observations from a re-analysis of the deposited data

Results flagged for a closer look

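The difference of the 24 to 72 h step between the genotypes, KO minus WT, is given here for the 6 genes with the lowest and the 6 with the highest values, each tested in the limma model. Lower in KO were Usp18 (-4.11), the interferon-inducible genes Ifi208 (-4.02), Ifi213 (-3.44) and Ifi209 (-3.43), Phf11a (-3.62) and Mpeg1 (-3.43). Mpeg1 rose by 4.12 in WT and was at 0.69 in KO, beside 16 myeloid markers that were not called in WT. Ifi208 rose by 3.04 in WT, from a mean of 2.53 at 24 h to 5.57 at 72 h, and changed by -0.98 in KO. KO levels are not given here, so these differences do not tell whether KO differed from WT already at 24 h.

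Higher in KO were Il1a (3.39), Il2 (2.04), Ifitm2 (1.91), the chemokine receptor gene Ccr6 (1.82), the chemokine gene Ccl3 (1.79) and the mitochondrial fission gene Mtfp1 (1.64). Il1a fell by 2.94 in WT and was at 0.45 in KO. Il2 was at 0.36 in WT, not called, and at 2.40 in KO.

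Probe sets with several genes or none listed, 17824 tested apart from the gene table, held signal that no comparison of genes used. Of these, 469 were higher and 1406 lower at 72 h in WT.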

How the results depend on the processing

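The count of called WT genes ranged from 5030 to 6134 over the alternatives, against 6086 as reported, and from 5288 to 6073 where 1 array was left out. Genes at least 2-fold higher ranged from 653 to 697 and at least 2-fold lower from 181 to 227. The KO count ranged from 2734 to 4365. For the step difference, the count was 942 without arrays 3 of every group, against 1876, and where arrays were left out it ranged from 942 to 1868. With the replicate number as a block, a pairing that the labels do not state and the correlations do not settle, the counts were 6112 for WT, 3957 for KO and 1924 for the difference. Of the named results the block ended the calls of Gzmm (-0.40) and Il10 (-0.29). Of 277 named results past the threshold, 252 kept their call under every alternative run. In 3946 comparisons 89 lost the call and 1 reversed: Gimap1, at -0.37 as reported, was 0.61 with the mean of its probe sets. For the WT step, each list's count in its more frequent direction was compared 560 times with an alternative, and 4 moved by over 1.5 times, all in the MYC, MAX and MXD list. Counts in the rarer direction and counts of step differences moved more. Without arrays 3 the members with a higher KO step went from 19 to 4 for DNA replication, 18 to 7 for mitochondrial ribosomal proteins, 12 to 2 for oxidative phosphorylation, 13 to 8 for nucleotide synthesis and 17 to 11 for lipid synthesis. The cause of these changes was not tested. Low intensities compress folds, and no value separates a gene that is not expressed from background.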

Other observations

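Gene families, some with members in the lists, were counted in the same way after results were seen, and paralogs within a family may share probe signal. The lists hold 6 of the 9 Gbp genes, 4 of the 27 polymerase subunits, 3 of the 38 proteasome genes, 3 of the 9 Tnfsf genes, 2 of the 11 Parp genes and 1 each of the Slfn, Trim30 and class I families. All 9 measured Gbp genes rose, with a median change of 1.51 and Gbp10 at 3.90. All 7 genes of the Trim30, Trim12 and Trim34 cluster rose, with a median of 2.31 and Trim30d, the highest, at 4.49. In the Phf11 family 4 of 5 rose, and in the Ifi200 cluster of DNA sensors 7 of 11 rose, among them Ifi204 (2.83) and Aim2 (0.45). Of 8 Slfn genes, which restrain growth and viruses, 5 rose, Slfn5 by 2.39 and Slfn1 by 2.39, and Slfn2 fell by 0.32. Among 11 Parp genes 8 rose, with Parp12 at 2.80 and Parp9 at 2.55, while Parp1, the DNA break sensor, fell by 0.72. Of 21 class I genes of the H2-Q, H2-T, H2-K and H2-M groups 8 rose and 0 fell, with H2-T24 at 2.78.

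Of 16 cytosolic aminoacyl-tRNA synthetase genes 11 rose and 2 fell, with Cars at 1.16 and Sars at 1.05. In the proteasome 17 of 38 genes fell and 3 rose, and the 3 were the immunoproteasome subunits Psmb9 (1.83), Psmb8 (0.69) and Psmb10 (0.51). RNA polymerase I to III subunits fell in 17 of 27 and rose in 2, exosome subunits fell in 6 of 8, and Timm genes of mitochondrial import fell in 11 of 16. Cytosolic ribosomal protein genes moved less, with 18 of 63 lower, 0 higher and a median of -0.12, and with 14 lower and 2 higher after the further quantile normalization. Of 9 Tnfsf ligand genes 6 rose, with Tnfsf4, the ligand of OX40, at 2.40. In genes that T cells are not known to use, 41 of 1105 olfactory receptor genes were called lower and 3 higher.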
